A study of Drosophila melanogaster with 2 samples.

Results

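The genes described here encode small immune-induced peptides of Drosophila melanogaster that were first numbered as immune-induced molecules (IM). The deposited expression table was searched for rows whose gene name is IM followed by a number, with CG43202 added. This found 9 of 15906 features, which carry 8 distinct names: IM1, IM2, IM3, IM23 and CG43202, which belong to the Bomanin family, IM4 and IM14, now called Daisho peptides, and 2 features named IM10, now called Baramicin A. In RefSeq, IM1, IM2 and IM3 are BomS1, BomS2 and BomS3, IM23 is BomBc1, CG43202 is BomT1, IM4 and IM14 are Dso1 and Dso2, and the IM10 features are BaraA2 and BaraA1. The other 7 Bomanins carry CG numbers in the table, and they are given beside the members because they complete the family.

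Toll signalling controls much of the fly's systemic response to fungi and Gram-positive bacteria. Extracellular recognition proteins and proteases activate the ligand Spätzle, Toll is engaged at the membrane, the inhibitor Cactus is degraded, and the NF-kappaB factors Dif and Dorsal switch on effector genes in the fat body, the insect counterpart of liver and adipose tissue. Bomanins are among the effectors on which survival of such infections depends most. Short Bomanins consist of little more than a secretion signal and a Bomanin domain, tailed Bomanins carry an extra C-terminal tail, and bicipital Bomanins carry a pair of Bomanin domains joined by a linker. Daisho peptides contribute to resistance against certain filamentous fungi, and the Baramicin A precursor is cut into several secreted peptides.

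Both libraries came from whole adult males at 15 days of age. In the miR-305 library the flies were da-Gal4/UAS-miR305, in which the ubiquitous daughterless driver expresses a miR-305 transgene, and in the control library they were da-Gal4/+, which carry the driver without that transgene. The title of the study names miR-305 as a promoter of ageing and its target mRNAs as the question. Each group had a single library, and the labels name no infection or other treatment and do not say how many flies were pooled. No difference below has a replicate check, and no p-value or error between flies can be given. A whole-body value cannot tell fewer cells of a type from less RNA per cell. Values are FPKM (fragments per kilobase of transcript, scaled to mapped fragments), which allows levels to be compared between genes per length. The deposited FPKM summed to 1176985 for miR-305 males, with 14241 features above 0, and to 967511 for control males, with 14389 features above 0. The sequencing depth of both is unknown. The mir-305 stem-loop, which checks the labels, had 546 FPKM in miR-305 males, against a listed 0 in control males.

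Of the 9 members, 7 had a mean of at least 1 FPKM, and each of these 7 had a lower value in miR-305 males than in control males. The other 2, both named IM10, were listed at 0 in both libraries. Of the 7, the Bomanins IM2, IM23 and CG43202 were at least 2-fold lower on the log2(FPKM + 1) scale, 0 were at least 2-fold higher, and 4 lay within 2-fold. Among all 11936 features with a mean of at least 1 FPKM, 1.74% were at least 2-fold lower and 2.36% were at least 2-fold higher. Of these 11936 features, 6394 had a ratio below 0 and 5542 above 0 as deposited. The median log2 ratio of the 7 members was -0.81, beside a median of -0.03 over all features. Their summed level was 6022 FPKM in miR-305 males, against 9455 FPKM in control males, or 0.512% and 0.977% of all deposited FPKM. Scaling both libraries to the same FPKM sum put the median of all features at -0.27 and changed the counts over all features to 178 higher and 361 lower, beside 282 higher and 208 lower as deposited. Under that scaling the median of the 7 members was -1.10, and IM1 was also at least 2-fold lower.

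**Figure D1:**
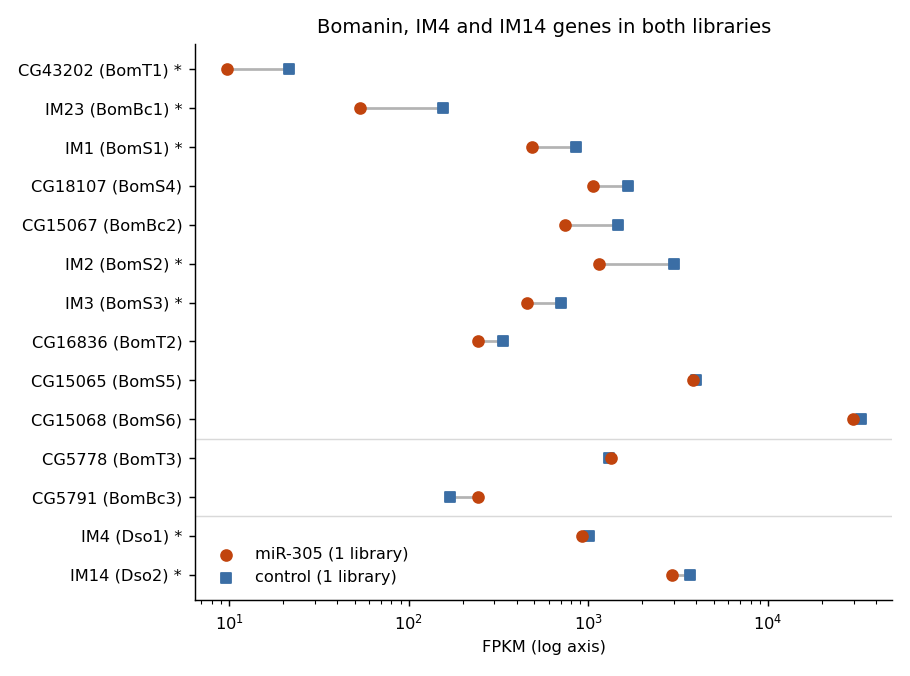
FPKM (log axis) of the 10 Bomanin genes of chromosome arm 2R in their order along it, the 2 Bomanin genes of 3R, and IM4 and IM14, in miR-305 males (circles) and control males (squares), with asterisks on the genes chosen by name. The control square lies to the right of the miR-305 circle for each 2R gene, widest for IM23 (53.4 and 154.7 FPKM in miR-305 and control males), and to the left of it for both 3R genes; the IM10 features are listed at 0 and cannot be drawn.

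The short Bomanins among the members are IM1, IM2 and IM3. IM2 (2R, 18386602 to 18387030, plus strand) had 1153 FPKM in miR-305 males, against 3013 FPKM in control males. It was 2.61-fold lower, with a log2 ratio of -1.38. Among the 169 features with a mean of at least 1000 FPKM, 0 had a lower ratio than IM2. Among features with a mean of at least 100 FPKM, several had a lower ratio, IM23 (-1.52) and Mtk (-1.42) among them. In the order of all features by FPKM, IM2 stood at position 149 in miR-305 males and position 38 in control males. IM1 (2R, 18383949 to 18384378, plus strand) had 484 and 852 FPKM in miR-305 and control males, a 1.76-fold lower level and a log2 ratio of -0.81. IM3 (2R, 18387895 to 18388734, plus strand) had 457 and 700 FPKM in the same order, a 1.53-fold lower level and a log2 ratio of -0.61. IM1 and IM3 thus lay on the same side as IM2 but within 2-fold. Of the 1181 features with a mean of at least 100 FPKM, 29 had a lower ratio than IM1 and 47 a lower one than IM3.

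IM1 and IM2 are near each other in build, each with 2 exons, a coding sequence for 45 residues, and spliced lengths of 361 and 367 nt. IM3 also has 2 exons and codes for 39 residues, but its longest transcript has 769 nt, of which 290 and 359 nt are untranslated at the 5′ and 3′ ends. In miR-305 males IM2 had 2.38 times the FPKM of IM1, and in control males 3.54 times. Against IM3 the ratio was 2.52 in miR-305 males and 4.31 in control males. IM1 and IM3 kept closer proportions, with IM1 at 1.06 times the FPKM of IM3 in miR-305 males and 1.22 times in control males. IM2 was thus lower relative to both of these short neighbours in miR-305 males, a comparison that does not depend on how whole libraries are scaled.

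IM23, a bicipital Bomanin with 117 residues (2R, 18382704 to 18383235, minus strand), had the lowest log2 ratio of the 7 members. It had 53.4 FPKM in miR-305 males, against 154.7 FPKM in control males, a 2.90-fold lower level and a log2 ratio of -1.52. Of the 1181 features with a mean of at least 100 FPKM, 8 had a lower ratio. CG43202, a tailed Bomanin with 63 residues (2R, 18381393 to 18381844, minus strand), was the least abundant member above 0. It had 9.65 FPKM in miR-305 males, against 21.6 FPKM in control males, a 2.24-fold lower level and a log2 ratio of -1.09. Its level lies near the point where the added 1 matters, and with a pseudocount of 5 its log2 ratio was -0.86, short of 2-fold.

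The same count was made over features of like level and length. Of 1181 features with a mean of at least 100 FPKM, 18 (1.52%) were at least 2-fold lower and 61 (5.17%) at least 2-fold higher. Of 352 protein-coding features with such a mean and a spliced length of 190 to 850 nt, which spans the Bomanins of 2R, 5 (1.42%) were at least 2-fold lower and 23 (6.53%) at least 2-fold higher. The 5 lower ones were IM2, IM23, Mtk, which encodes an antifungal peptide, Mst84Dd, which encodes a sperm tail protein, and CG34330. The plot of log2 ratio against level shows the members in this setting.

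**Figure D2:**
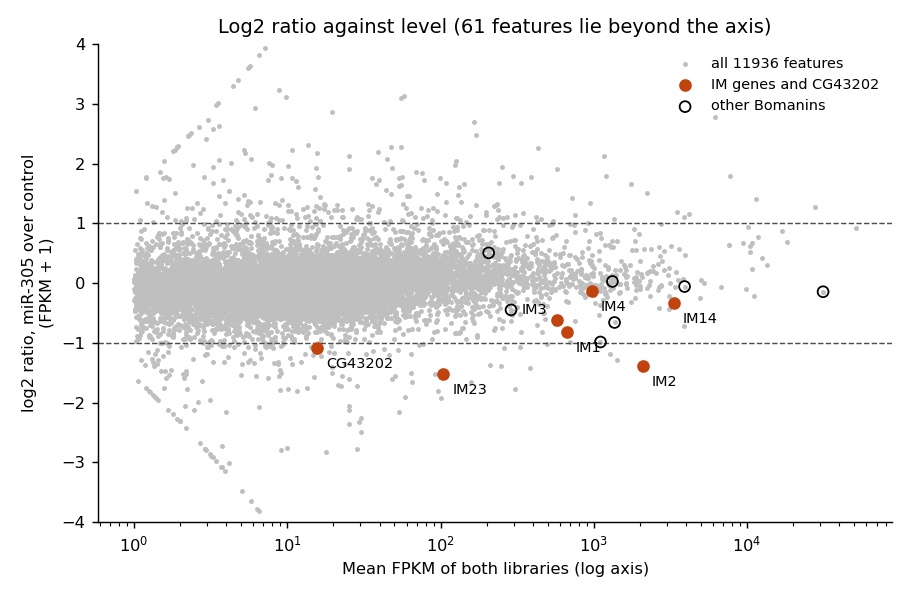
Log2 ratio (miR-305 over control, FPKM + 1) against the mean FPKM of both libraries (log axis) for 11936 features, with the 7 named members filled and the other 7 Bomanins as open circles; dashed lines mark 2-fold, and 61 features lie beyond the axis. IM2, with a mean of 2083 FPKM, lies below the band of features of its level, while the open circle farthest to the right, CG15068, lies close to 0.

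The Daisho genes lay within 2-fold. IM4 (2R, 20868496 to 20869321, minus strand) had 927 FPKM in miR-305 males, against 1012 FPKM in control males, with a log2 ratio of -0.13. IM14 (2R, 20870392 to 20870678, plus strand) had 2937 and 3702 FPKM in miR-305 and control males, with a log2 ratio of -0.33. Of the 169 features with a mean of at least 1000 FPKM, 11 had a lower ratio than IM14. Of the 1181 with a mean of at least 100 FPKM, 226 had a lower ratio than IM4. IM14 had 3.17 times the FPKM of IM4 in miR-305 males and 3.66 times in control males. Their levels were 1.09-fold and 1.26-fold lower, for IM4 and IM14 in turn, beside 2.61-fold for IM2. The 6 other features within 20 kb that had a mean of at least 1 FPKM lay within 2-fold (CG15227, Ipk1, CR43160, CG17999, CG9993 and otp), with log2 ratios from -0.64 to 0.63. A further one, Cib2, was below that mean.

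Both IM10 features were listed at 0 in both libraries. They are annotated as neighbouring genes, BaraA2 (2R, 13407011 to 13408358) and BaraA1 (2R, 13411739 to 13413085), each with 4 exons and 257 residues and with spliced lengths of 1160 and 1159 nt. Of 193 features, leaving out named noncoding RNAs, whose gene name is on more than 1 feature, 182 (94.3%) were listed at 0 in both libraries, against 382 of 13133 (2.91%) whose name is on 1 feature. The repeated names include Prosalpha1, which encodes a subunit of the proteasome, a complex of all cells. These listed values therefore say nothing of the level of Baramicin A. Close to the IM10 features lies AttC, an attacin gene, with 8.78 FPKM in miR-305 males, against 41.5 FPKM in control males. The 6 other expressed features within 20 kb of them lay within 2-fold, namely CG30065, Ser8, CG43691, CG4744, CG42321 and CG30060. CG18278 and CG30059, which share the loci of the IM10 features in the table, had means under 1 FPKM.

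IM1, IM2, IM3, IM23 and CG43202 lie in a single cluster with 5 other Bomanin genes, 10 genes in 9237 bp of 2R with 6 on the plus and 4 on the minus strand. The 10 genes are, in order along the chromosome, CG43202, IM23, IM1, CG18107, CG15067, IM2, IM3, CG16836, CG15065 and CG15068. Each of the 10 had a lower FPKM in miR-305 males, and 3 were at least 2-fold lower. Of all 11936 features with a mean of at least 1 FPKM, 6394 had a ratio below 0 and 1.74% were at least 2-fold lower. The order of their levels was the same in both libraries, from CG15068 at the top through CG15065 and IM2 down to IM23 and CG43202. The sizes of the ratios differed along the cluster. The 7 genes on the left, CG43202 to IM3, had log2 ratios between -1.52 and -0.61, while the 3 on the right, CG16836, CG15065 and CG15068, had ratios between -0.45 and -0.06, so the ranges of the left and right genes did not overlap. This division was made after the values were seen, and no test was run on it.

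**Figure D3:**
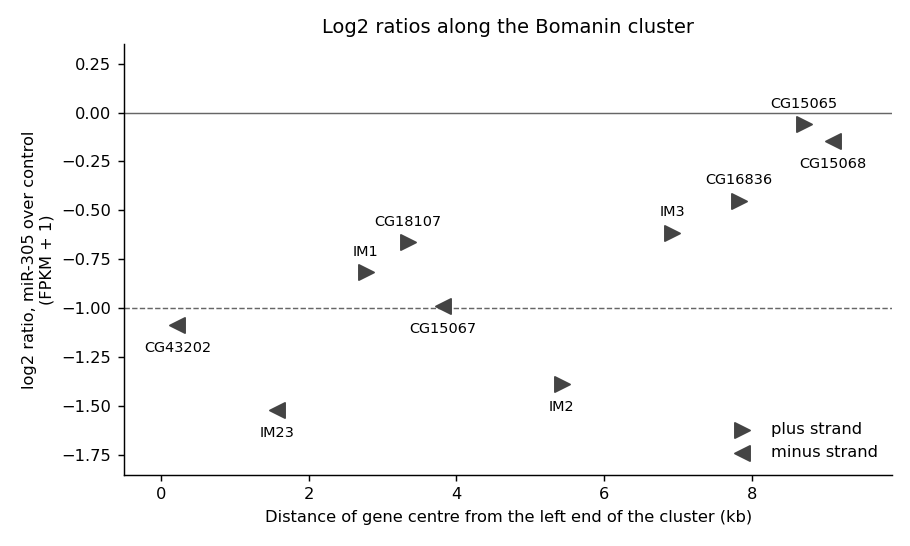
Log2 ratio (miR-305 over control, FPKM + 1) of the 10 Bomanin genes of 2R against the distance of each gene's centre from the left end of the cluster, in kb, with triangles pointing in the direction of transcription. All 10 lie below 0 (9 when both libraries are scaled to the same median), 3 of them below the dashed line at 2-fold, and the ratios are closest to 0 at the right end.

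CG15068 (BomS6), a short Bomanin with 40 residues, held most of the cluster's summed FPKM and had a ratio near 0. It had 29726 FPKM in miR-305 males, against 32876 FPKM in control males, position 3 and position 2 of all features, with a log2 ratio of -0.15. It made up 78.7% of the cluster's FPKM in miR-305 males and 72.9% in control males. Its FPKM was 25.8 times that of IM2 in miR-305 males and 10.9 times in control males. Its spliced length of 198 nt is the shortest of the family, and values of such short transcripts depend on how the effective length is set. Next to it, CG15065 (BomS5), also a short Bomanin, had 3828 and 3986 FPKM in miR-305 and control males, with a log2 ratio of -0.06. Scaling both libraries to the same median put CG15065 just above 0 (0.018), which left 9 of the 10 cluster genes below 0.

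The other genes of the cluster lay between these extremes. CG15067 (BomBc2), a bicipital Bomanin, had 741 FPKM in miR-305 males, against 1469 FPKM in control males, with a log2 ratio of -0.99, just short of 2-fold (-1.27 with the same sum). The short Bomanin CG18107 (BomS4) had 1058 and 1672 FPKM in miR-305 and control males, with a log2 ratio of -0.66. These genes lie on opposite strands and share 88 nt at their ends. No source used here states whether the counting used strand, so reads from the overlap are of uncertain assignment. The tailed Bomanin CG16836 (BomT2) had 244 FPKM in miR-305 males, against 333 FPKM in control males, with a log2 ratio of -0.45. Without CG15068, the summed level of the cluster was 8028 FPKM in miR-305 males, against 12201 FPKM in control males, which is 1.52-fold lower, and with it 37754 and 45077 FPKM, which is 1.19-fold lower.

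Position was not the only property that went with the ratio. Over the 10 cluster genes, Spearman's rho was 0.81 between log2 ratio and distance along the cluster, 0.50 between log2 ratio and mean FPKM, and -0.52 between log2 ratio and spliced length. Mean FPKM and distance were themselves related, with a rho of 0.68. The points share the same pair of libraries, so these are descriptions of it. Strand did not fully divide the ratios, since the 4 genes on the minus strand held the lowest ratio (IM23) and one near 0 (CG15068). The median log2 ratio was -1.04 for these 4 genes, lower than the -0.64 of the 6 genes on the plus strand.

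The 2 Bomanins outside the cluster had values at or above control as deposited. CG5778 (BomT3) and CG5791 (BomBc3), a tailed and a bicipital Bomanin, lie on 3R. CG5778 had 1334 FPKM in miR-305 males, against 1310 FPKM in control males, with a log2 ratio of 0.03. CG5791 had 242 and 170 FPKM in miR-305 and control males, with a log2 ratio of 0.51. With the same sum these ratios were -0.26 and 0.22, near and above the median of all features at -0.27. The class of Bomanin thus did not separate the genes, as each of the tailed and bicipital classes had a gene at least 2-fold lower and a gene above 0 as deposited. Over all 12 Bomanins the median log2 ratio was -0.64, and 10 of the 12 lay below 0, beside 6394 of all 11936 features.

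Other genes next to the cluster lay mostly above 0 as deposited. Of 11 features within 20 kb of the named members there, 10 had a mean of at least 1 FPKM, and only GstE1 and GstE2 of these lay below 0 (log2 ratios of -0.30 and -0.01). With the same sum, 6 of the 10 lay below 0. The nearest on the right, Idgf5, a chitinase-like growth factor gene, had 50.8 FPKM in miR-305 males, against 46.1 FPKM in control males. Among the glutathione S-transferase genes that follow, GstE10 was higher (56.1 and 15.8 FPKM in miR-305 and control males), and GstE3, GstE4, GstE5, GstE6, GstE7 and GstE8 had log2 ratios between 0.03 and 0.47. On the left, CR42736 was listed at 0 in both libraries.

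Other genes listed as immune-induced peptides varied in direction. CG18067 (Bbd, Bombardier), which short Bomanins need in order to reach normal levels in the haemolymph, had 2499 FPKM in miR-305 males, against 2171 FPKM in control males, with a log2 ratio of 0.20 (-0.080 with the same sum). CG16712, which RefSeq names IM33, had a log2 ratio of 0.36, and CG14957 one of 0.65. CG13482 had 47.3 FPKM in miR-305 males, against 98.0 FPKM in control males, with a log2 ratio of -1.04, which was under 2-fold at the same median (-0.96) or when 5 was added to each value (-0.98). The gene edin, named for its elevation during infection, had 0.27 FPKM in miR-305 males, against a listed 0 in control males. Of these 5 genes 4 passed the mean of 1 FPKM, with a median of 0.28 (0.00055 with the same sum).

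Among 8 expressed antifungal and defensin peptide genes, only some of them Toll targets, 2 were past 2-fold downward, 0 upward, and the median log2 ratio was -0.44. Over all features with a mean of at least 1 FPKM, 1.74% were past 2-fold downward and 2.36% upward. Mtk, metchnikowin, had 208 FPKM in miR-305 males, against 558 FPKM in control males, a log2 ratio of -1.42 that lies beside that of IM2. Drs, drosomycin, the standard readout of Toll activity, had 385 and 547 FPKM in miR-305 and control males. Def had a log2 ratio of -0.64 and Drsl4 one of 0.53. Drsl1, past 2-fold beside Mtk, was at a listed 0 in miR-305 males, against 18.9 FPKM in control males. It passed the mean of 1 FPKM through the control library alone. The list, with Drsl6 below that mean, summed to 4693 FPKM in miR-305 males, against 4202 FPKM in control males (0.399% and 0.434% of all deposited FPKM). Drsl4 held most of both sums (3406 and 2361 FPKM). Among 10 expressed antibacterial peptide genes, mainly targets of the Imd pathway, 4 were past 2-fold downward and 0 upward. The shares over all features were 1.74% and 2.36% in turn, and the median of these 10 genes was -0.88. That median was -0.59 with a pseudocount of 5 and -2.12 over the 5 genes with a mean of at least 10 FPKM. The 4 genes were Dpt (-2.33), DptB (-2.15), AttC (-2.12) and CecA2 (-1.05). Of these, CecA2 was only just past 2-fold, with 12.2 and 26.4 FPKM in miR-305 and control males. The lower values were thus not limited to Bomanins or to Toll targets, and a difference between these lists cannot be tested with 1 library per group.

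Most genes for components that carry the Toll signal lay within 2-fold, as did 11446 of all 11936 features. Of 17 expressed genes for the receptor and the steps inside the cell, 0 were past 2-fold in either direction. Over all features 1.74% were lower and 2.36% higher, so a count of 0 in a list this short lies near those shares. The median log2 ratio of the 17 genes was -0.05 (0.023 with the same median). The inhibitor gene cact, itself a Toll target, had 44.5 FPKM in miR-305 males, against 46.0 FPKM in control males. Dif had a log2 ratio of -0.14, dl had 14.8 FPKM in miR-305 males and 14.5 FPKM in control males, and the receptor gene Tl had 5.48 and 5.89 FPKM in the same order. The genes farthest from 0 were Pli (-0.52), aPKC (-0.46), Traf6 (0.26) and Gprk2 (-0.19). Of 15 expressed extracellular recognition and protease genes, 1 was past 2-fold upward, 0 downward, and the median was 0.21 (-0.067 with the same sum). It was sphinx1, a serine protease homologue gene (14.6 and 5.78 FPKM in miR-305 and control males), followed by sphinx2 (0.91), spheroide (0.72) and the fungal sensor gene GNBP3 (0.69). Of 14 expressed Imd signalling genes, 0 were past 2-fold in either direction, also near the shares over all features, with a median of -0.08. Farthest from 0 lay nub (-0.38), Dredd (-0.36), PGRP-LC (-0.34) and key (-0.34).

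**Figure D4:**
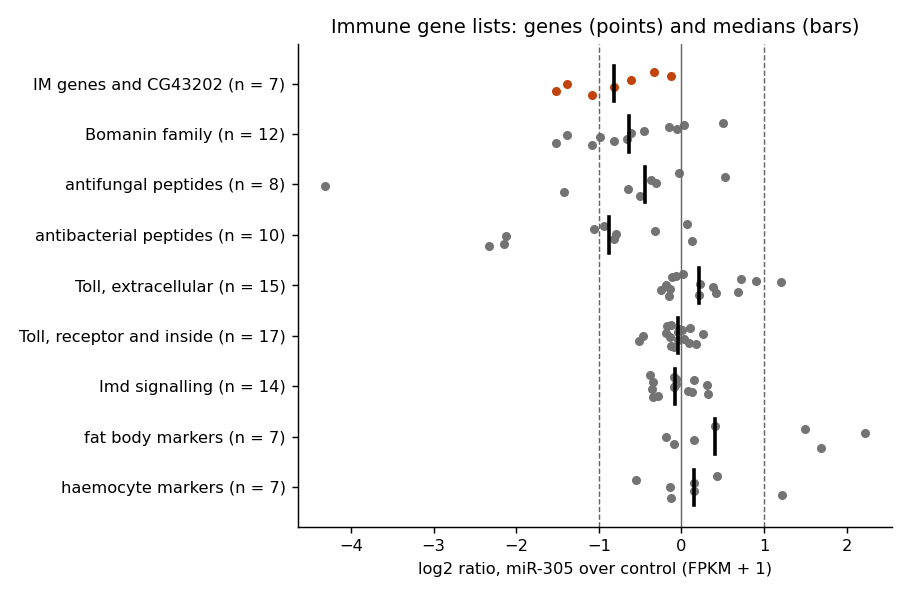
Log2 ratio (miR-305 over control, FPKM + 1) of each gene with a mean of at least 1 FPKM (points, spread vertically only for legibility) and the median of each list (bars); dashed lines mark 2-fold. The 7 members, the Bomanin family and the antifungal and antibacterial peptide lists have medians below 0, from -0.88 to -0.44, while the Toll and Imd signalling lists have medians from -0.08 to 0.21 as deposited; with the same sum that of the extracellular Toll list is -0.067.

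Markers of fat body and haemocytes, which make such peptides, and of gut and the male tract were set beside them, and 0 of the markers of these 4 lists were listed at 0 in both libraries. Over all features with a mean of at least 1 FPKM, 2.36% were past 2-fold upward and 1.74% downward. Of 7 expressed fat body marker genes, 3 were past 2-fold upward, 0 downward, and the median was 0.40 (0.13 with the same sum, and 0.15 over all 9 without the filter). The 9 measured markers summed to 2678 FPKM in miR-305 males, against 2289 FPKM in control males. As shares of all deposited FPKM these sums were 0.228% and 0.237%, lower in miR-305 males. Lsp1alpha (2.23), Lsp2 (1.68), Lsp1beta (1.49) and Apoltp (0.40) had the largest ratios, while Rfabg (-0.09) and Obp44a (-0.19) lay below 0. The 3 past 2-fold were thus all Lsp genes. Another of that name, Lsp1gamma, had a mean under 1 FPKM, with 0.50 and 0.83 FPKM in miR-305 and control males. Of 7 expressed haemocyte marker genes, 1 (NimC1, 1.21) was at least 2-fold higher, and Sr-CI (-0.55), crq (0.43) and vkg (0.15) followed. In this list 4 genes lay above 0 and 3 below, with Hml (-0.12) and Ppn (-0.13) among those below. The 8 measured markers summed to 154 FPKM (0.0131% of the total) in miR-305 males, against 136 FPKM (0.0140%) in control males. The median of the 7 was 0.15 (-0.11 with the same sum, and 0.013 over all 8 without the filter). Of 9 expressed gut markers, betaTry (1.91) was at least 2-fold higher and deltaTry (-1.53) at least 2-fold lower, with Amy-p at 0.97 and Jon99Ci at 0.81. Of these, deltaTry had 0.64 FPKM in miR-305 males, against 3.73 FPKM in control males. It passed the mean of 1 FPKM through the control library alone. The 10 measured markers summed to 5833 FPKM (0.496% of the total) in miR-305 males and 3673 FPKM (0.380%) in control males. The 7 male reproductive tract markers summed to 129887 FPKM (11.0% of the total) in miR-305 males and to 65040 FPKM (6.72%) in control males. Mst57Db, Dup99B and SP held most of both sums. Of the 7, 4 lay above 0 and 3 below, with a median of 0.71. Dup99B (1.28), Mst84Dd (-1.09), Mst57Db (0.92) and SP (0.87) lay farthest from 0, and dj (-0.47) and Mst87F (-0.36) were also below 0. The part of these tissue differences in the values of the members was not tested.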

How the data were processed

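Trizol-extracted total RNA was made into NEBNext Ultra Directional libraries and read as 51-bp single ends on a HiSeq 1000, per the labels' protocols. The submitters' processing notes name TopHat2 2.0.13, Cufflinks 2.2.1, FastQC 0.11.5 and dm6. The authors deposited 1 FPKM value per library and feature, per the file headers. Low values fell on no common step that would give whole reads, so the depth behind a value is unknown, and counting intervals could not be given.

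A log2 ratio sets miR-305 over control after adding 1 to each FPKM, so low genes show less than their true difference. Folds are ratios of FPKM without the added 1. Features that averaged at least 1 FPKM over both libraries were counted as lower or higher past 2-fold. Single libraries allow no test between the groups. Names, coordinates (dm6, 1-based), lengths and residues came from RefSeq and Ensembl 115 annotation; the longest transcript was used. Features with several symbols entered no list. The genes named were all members, Bomanins and related peptides, up to 4 per other list with the largest absolute ratio, and neighbours within 20 kb. The repeated-name count, the left and right division of the cluster, the length window of 190 to 850 nt and, beyond that rule, cact, Dif, dl, Tl and Drs, were chosen after values were seen. The members and lists were chosen with earlier results of these data known. Results were recomputed with a pseudocount of 0.1 or 5, without the filter, with a minimum mean of 10, and after scaling to the same median, upper quartile or sum. Python 3.11.15, numpy 2.4.6, pandas 2.3.3, scipy 1.17.1 and matplotlib 3.10.9 were used. How often features pass 2-fold between single libraries of the same group was not tested. No sequence was used here.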

Additional observations from a re-analysis of the deposited data

How the results depend on the processing

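Every one of the 7 members stayed below 0 under each of the 7 alternatives, with log2 ratios of -1.67 to -1.31 for IM2, -1.79 to -1.44 for IM23 and -0.41 to -0.05 for IM4. The filter settings leave the ratio of a single gene as it is, and a pseudocount cannot change its sign. Only the scalings to the same median, upper quartile or sum could therefore have moved a member past 0. With a pseudocount of 5, CG43202 fell short of 2-fold (-0.86), because its level is low, and all features counted 175 higher and 102 lower. With both libraries scaled to the same sum, which moved the median of all features to -0.27, IM1 and the median of the 7 members passed 2-fold (-1.10 for both), 5 Bomanins instead of 3 were at least 2-fold lower, and the medians of the extracellular Toll list (-0.067) and the haemocyte markers (-0.11) changed sign. There 178 features were higher and 361 lower, beside 282 and 208 with the deposited scaling. The same median put the intracellular Toll list at 0.023. The median of the antibacterial peptides passed 2-fold with a pseudocount of 0.1 (-1.002), the same sum (-1.11) and a mean FPKM of at least 10 (-2.12, over 5 genes instead of 10). A mean FPKM of at least 10 left 180 higher and 91 lower features, since fewer were counted, and a pseudocount of 0.1 gave 332 lower. Of 266 recomputed values, which include single genes beside the members added after the values were seen, 240 kept their sign and their side of 2-fold or, for counts, stayed within 1.5 times. These 240 include the single-gene ratios under the filter settings, which could not differ. No paired analysis was possible because each group had 1 library. With 1 library per group and unknown depth, no value here separates miR-305 from other differences between the flies.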

Other observations

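One IM gene fell outside the search because the table joins it to another gene. IM18 shares a feature with CG10332 (2R, 23600914 to 23601773), which had 117 FPKM in miR-305 males, against 93.1 FPKM in control males, with a log2 ratio of 0.33. What share of that value belongs to IM18 was not tested.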
